A study of Mus musculus with 4 samples.

Results

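The 10 imprinted genes described here, in muscle stem cells (MuSCs) of adult mice grown in culture, were H19, Meg3, Rian, Dlk1, Peg3, Plagl1, Grb10, Mest, Gnas and Ndn. They were found by gene name, and each of the 10 was 1 of the 55267 entries in the table of gene levels. RNA-seq was performed on 4 libraries, 2 from cells given BMP6 and 2 from vehicle controls. The MuSCs came from female C57BL/6N mice aged 9 weeks that carried the Tg(Pax7-EGFP)Tajb reporter, in which the Pax7 promoter drives a green fluorescent protein, and cultured cells were sorted for that fluorescence. All cells were kept for 6 h without serum with 200 ng/mL of soluble BMPR-1A-Fc, a receptor fragment that binds BMPs in the medium. Treated cells then received 100 ng/mL BMP6 for 1 h, and control cells received 4 mM HCl with 0.1% BSA. Replicates 1 and 2 were biological replicates, and per the labels each number is also a batch, with 1 library of each group in it.

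An imprinted gene is transcribed mainly from the chromosome inherited from 1 parent, according to methylation set in the germ line. H19, Meg3 and Rian are long non-coding RNAs made from the maternal chromosome, whereas Dlk1, Peg3, Plagl1, Mest and Ndn are made from the paternal chromosome. Grb10 is maternal in most tissues and paternal in neurons, and the Gnas locus gives maternal, paternal and biallelic products from different start sites. Many of these genes act on growth, and several are known to be active in muscle progenitors. The files hold no allele information, so the levels are totals over both chromosomes.

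Several of these genes also carry microRNAs, whose mature sequences are shown because they are the known small RNA products of the transcripts measured here. They were taken from RefSeq (GRCm38.p6), each was found at 1 place on its chromosome in GRCm39, and the seed (bases 2 to 8) is in capitals, 5′ to 3′. The 8 mature sequences have 8 different seeds, and only the miR-370-5p seed was shared with another of the 1679 mature names in that table, miR-1193-3p.
miR-675-5p: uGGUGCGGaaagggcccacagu
miR-675-3p: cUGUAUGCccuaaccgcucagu
miR-770-5p: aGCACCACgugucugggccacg
miR-770-3p: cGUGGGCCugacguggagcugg
miR-370-5p: cAGGUCACgucucugcaguu
miR-370-3p: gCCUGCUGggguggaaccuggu
miR-335-5p: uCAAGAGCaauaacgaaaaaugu
miR-335-3p: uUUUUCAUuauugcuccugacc
The miR-675 hairpin (chr7:142130801-142130884) lies in exon 1 of H19, and miR-335 (chr6:30741298-30741395) lies in an intron of all 3 Mest transcripts. The miR-770 hairpin (chr12:109530126-109530219) is exonic in 1 of the 5 Meg3 transcripts and beyond the end of the other 4. The miR-370 hairpin (chr12:109584692-109584770) is intronic in 8 of the 22 Rian transcripts and outside the other 14. Libraries of polyadenylated RNA measure the host transcripts and not the mature microRNAs.

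For an upstream and a downstream start site of Mest and of Grb10, the sequences before the start are shown because read depth told these starts apart. Each is the 250 bases before the start from RefSeq (GRCm38.p6), placed by exact match in GRCm39, with every CG dinucleotide in capitals. CG dinucleotides are the sites of methylation on which imprinting rests.
Mest upstream start, chr6:30733255-30733504, plus strand: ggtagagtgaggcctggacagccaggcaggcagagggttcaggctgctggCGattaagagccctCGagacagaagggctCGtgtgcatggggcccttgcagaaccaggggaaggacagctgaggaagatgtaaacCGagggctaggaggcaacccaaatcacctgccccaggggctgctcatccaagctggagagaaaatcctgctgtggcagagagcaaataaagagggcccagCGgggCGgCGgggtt
Mest main start, chr6:30737799-30738048, plus strand: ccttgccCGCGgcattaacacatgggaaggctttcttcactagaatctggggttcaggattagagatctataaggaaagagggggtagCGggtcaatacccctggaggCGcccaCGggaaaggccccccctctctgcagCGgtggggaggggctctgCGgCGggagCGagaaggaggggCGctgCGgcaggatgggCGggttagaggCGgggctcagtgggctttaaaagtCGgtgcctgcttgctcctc
Grb10 main start, chr11:11987421-11987670, minus strand: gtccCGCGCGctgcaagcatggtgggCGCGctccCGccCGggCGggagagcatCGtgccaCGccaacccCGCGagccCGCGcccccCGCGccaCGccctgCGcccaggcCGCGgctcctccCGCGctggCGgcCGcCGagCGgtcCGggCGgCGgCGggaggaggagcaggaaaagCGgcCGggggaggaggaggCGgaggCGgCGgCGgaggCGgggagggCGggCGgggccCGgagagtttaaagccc
Grb10 downstream start, chr11:11977972-11978221, minus strand: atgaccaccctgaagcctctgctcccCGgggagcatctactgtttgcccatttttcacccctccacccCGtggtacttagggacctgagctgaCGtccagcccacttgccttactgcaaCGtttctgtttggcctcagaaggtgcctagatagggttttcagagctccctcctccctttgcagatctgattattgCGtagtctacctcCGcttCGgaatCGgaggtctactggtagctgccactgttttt
The Mest sequence at the main start held 14 CG dinucleotides and the upstream one held 7. The Grb10 sequence at the main start held 40 CG and the downstream one held 8. Over 32851 RefSeq promoters of this length the median was 6, 92.1% held at least 1, 29.4% held 14 or more and 1.31% held 40 or more.

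Rebuilt from coverage, the 4 libraries held 108 to 112 reads in units of 1000000, and 13002 to 13203 entries reached a level of 1 TPM, the share of transcripts scaled to 1000000 a library. All 7 myogenic markers were present. Pax7, the MuSC marker, was lowest at 8.29 to 11.7 TPM. Myog, which marks the onset of differentiation, was highest at 4400 to 5472 TPM. Endothelial and Schwann cell markers stayed under 1 TPM and the immune marker Ptprc was at or near 0, with Cd68 at 0.905 to 1.68 TPM. Pericyte and smooth muscle markers summed to 5.00 to 5.49 TPM, nearly all of it Pdgfrb, whereas the 4 fibroblast markers summed to 103 to 135 TPM in controls and 89.1 to 130 TPM after BMP6, mostly from Col3a1. Id1, a direct BMP target, was at 90.5 and 129 TPM in controls 1 and 2 and at 584 and 513 TPM in BMP6 1 and 2, and 4 of 5 BMP response genes passed the test. Because cells were measured in bulk, fewer cells of a type and less RNA per cell cannot be told apart.

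The control levels of the 10 genes lay far apart. TPM is scaled for transcript length, so a comparison between genes rests on the length of the transcripts to which reads were assigned. Mest, a hydrolase-like protein of mesoderm, was highest at 1316 ± 194 TPM (mean ± SD, n = 2) and ranked 79 of 13128 entries tested. It was followed by Gnas at 648 ± 28.4 TPM, H19 at 484 ± 104 TPM and Grb10 at 304 ± 25.3 TPM. Peg3 was at 73.7 ± 1.48 TPM, Ndn at 17.7 ± 3.27 TPM, Meg3 at 11.3 ± 3.19 TPM and Plagl1 at 9.72 ± 1.40 TPM. Rian was at 1.83 ± 0.762 TPM and Dlk1 at 0.00946 ± 0.0134 TPM. In TPM, neighbours in this order did not overlap between control libraries, except Meg3 and Plagl1, whose ranges did overlap and which cannot be ordered. Control read depth over the main transcripts was 102 to 418 reads a base in exons 1 to 8 of Meg3. In its exon 9 it was 5.90 and 14.4. Depth was 9.38 to 73.1 in Plagl1 and 128 and 94.5 in Ndn, so the order of these genes changed with the exon compared. Over the last exon, Mest (8878 and 7277) and Gnas (6490 and 8481) overlapped. The order given is therefore one of TPM and not of depth. The 10 genes together took 0.277% to 0.307% of all TPM in a library.

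**Figure D1:**
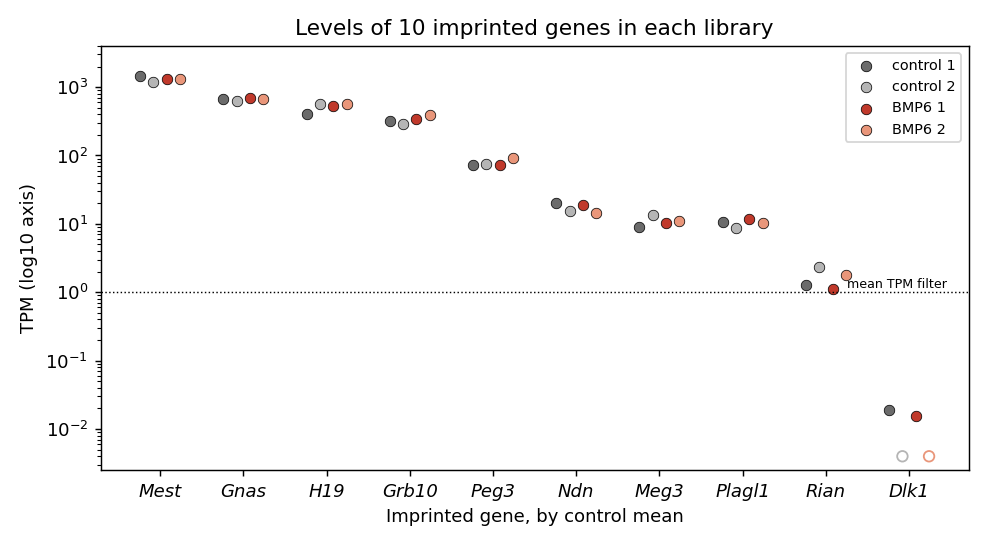
TPM of the 10 imprinted genes (log axis) in control replicates 1 and 2 (grey) and BMP6 replicates 1 and 2 (red), ordered by control mean. Open circles stand for a level listed at 0 and are drawn at the bottom of the axis, and the dotted line is 1 TPM; 9 genes lie above it in every library and Dlk1 lies under it.

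None of the 9 tested genes passed the test for a change after 1 h of BMP6. A gene was called with an adjusted p under 0.1 and a fold of at least 2 or at most 0.5, in limma on log2(TPM + 1) with Benjamini-Hochberg adjustment over 13128 entries. The count was 0 of 9 genes, against 27 entries or 0.206% of all entries tested, and 0 of 9 passed on the adjusted p alone, against 0.244%. At an unadjusted p under 0.05 the count was 1 gene, Grb10, against 3.2% of all entries. With the replicate number as a block, again 0 of 9 were called, against 0.328% of entries, and 0 of 9 passed on the adjusted p alone, against 1.64%. The unadjusted count was then 2, Grb10 and H19, against 12.9%. Of their 63 transcripts 20 were tested, and 0 were called, against 0.0672% of 19346 transcripts, with 0 at an unadjusted p under 0.05. The median log2 difference was 0.06 over the 9 genes and 0.02 over all entries. The difference was above 0 in 6 genes and under 0 in 3, and the 95% intervals together reached from -0.80 to 0.55 on the log2(TPM + 1) scale. In 8 of the 9 genes the interval did not reach a 2-fold change of the control mean TPM. In Rian it did, since a fall from 1.83 TPM by 2-fold is -0.56 on this scale and the interval began at -0.80. The adjusted p of each gene was 1.00. Dlk1 was under the filter of a mean of 1 TPM and was not tested. With 2 libraries per group, an exact permutation test can give no p under 0.333.

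**Figure D2:**
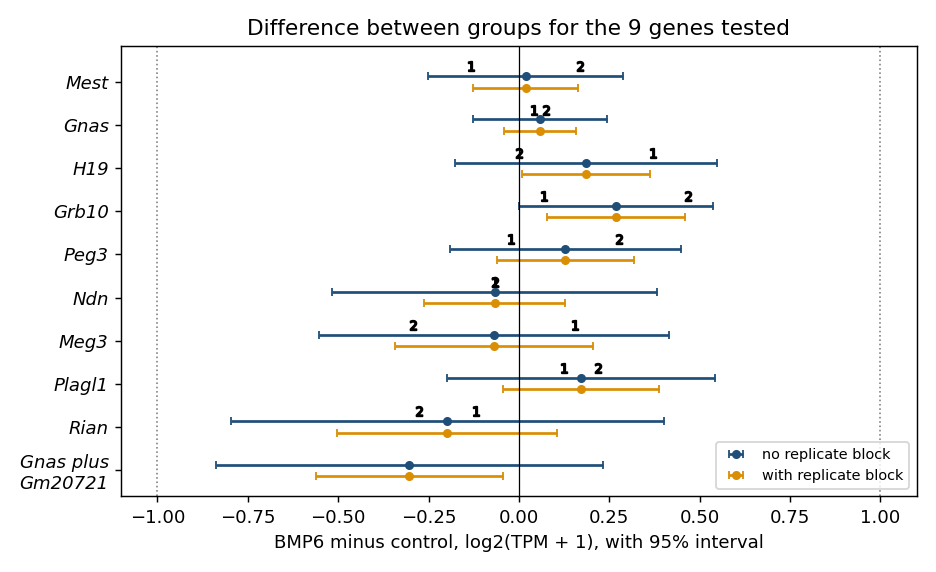
BMP6 minus control on the log2(TPM + 1) scale for the 9 genes tested and for Gnas with Gm20721 added, as points with 95% intervals, without (blue) and with (orange) the replicate number as a block. The digits 1 and 2 mark the difference within replicate numbers 1 and 2 and the dotted lines mark a difference of 1, which is close to 2-fold in TPM for the abundant genes but more than that for a low gene such as Rian. The intervals run from -0.84 for the summed Gnas to 0.55 for H19.

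Among the maternal non-coding RNAs, H19 was abundant in TPM, and Meg3 and Rian, which share the Dlk1-Dio3 locus, were low in TPM. The Meg3 TPM includes a long last exon of low depth, given below. H19 (ENSMUSG00000000031.20, chr7:142129268-142131885, minus strand, GRCm39), which restrains growth in the embryo, was at 410 and 558 TPM in controls 1 and 2 and at 530 and 558 TPM in BMP6 1 and 2. Control 1 was the low library, the groups overlapped, and the log2 difference was 0.18 ± 0.15 (SE). The difference was 0.37 within number 1 and 0.00 within number 2, and it was -0.04 without control 1.

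The H19 reads were divided between 2 transcripts that start at the same base. ENSMUST00000152754.10, which has 5 exons and was the higher of the pair in controls, was at 230 and 349 TPM in controls and 205 and 363 TPM after BMP6. ENSMUST00000247116.1 was at 180 and 209 TPM in controls and 325 and 195 TPM after BMP6, so BMP6 1 was the only library in which it was the higher one, with 61.4% of H19. Neither passed the test. Depth over H19 was highest in exon 4 and lowest in exon 1, at 17.5% to 19.2% of the depth of the last exon in the 4 libraries. Exon 1 holds miR-675, but low depth was not particular to it. Exon 1 was also the lowest exon in Mest, Grb10, Peg3 and Plagl1, though not in Meg3. The first exon of ENSMUST00000247116.1 has 336 bases, against 1320 in ENSMUST00000152754.10.

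Meg3 (ENSMUSG00000021268.20, chr12:109506880-109538160, plus strand), which is known to act as a growth suppressor, was at 9.01 and 13.5 TPM in controls and 10.1 and 10.8 TPM after BMP6. Both BMP6 libraries lay between the controls, and the log2 difference was -0.07 ± 0.20. The entry also holds 3 transcripts of other genes. The 5 transcripts of Meg3 itself held 91.8% and 98.0% of the TPM in controls and 95.5% and 97.2% after BMP6. Of these 5 Meg3 transcripts, 4 held at least 10% of the control level each, the highest being ENSMUST00000124106.9 with 35.7%. Depth over this transcript was 100.3 to 418 reads a base in exons 1 to 8 and 5.90 to 14.4 in exon 9, which takes up 5052 of its 6499 bases. The main Meg3 transcript matched 1 other gene, Gm27000, over 601 bases at 95% identity or more, so reads there could have been split.

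Rian (ENSMUSG00000097451.13, chr12:109570242-109628150, plus strand), the host of many small nucleolar RNAs, was at 1.29 and 2.37 TPM in controls and 1.11 and 1.78 TPM after BMP6. The groups overlapped, replicate 2 was the higher library in both, and the log2 difference was -0.20 ± 0.24. These values rested on 222 to 456 rebuilt reads a library. The entry also holds 12 transcripts of other genes, among them Mir370, and the 22 transcripts of Rian itself held 63.4% and 74.5% of its TPM in controls and 91.8% and 69.6% after BMP6. Rian's own transcripts summed to 0.818 and 1.76 TPM in controls and 1.02 and 1.24 TPM after BMP6, so that the BMP6 library was the higher one within number 1 and the lower one within number 2, and the direction within number 1 was opposite to that of the entry. Of the 22, 6 were listed at 0 in every library and none reached a mean of 1 TPM. The ratio of Meg3 to Rian was 6.97 and 5.71 in controls and 9.15 and 6.08 after BMP6.

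Dlk1 (ENSMUSG00000040856.19, chr12:109418775-109429262, plus strand), the paternal gene of the same locus and a membrane protein related to Notch ligands, was at 0.0189 TPM in control 1 and 0.0154 TPM in BMP6 1. It was listed at 0 in control 2 and BMP6 2. The values of number 1 rested on 5.62 rebuilt reads in control 1 and 4.00 in BMP6 1, and 5 of its 7 transcripts were listed at 0 in every library. No difference between groups was detectable at this depth. The other paternal genes of the locus that were listed, Rtl1 and Dio3, also stayed under 1 TPM in every library.

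Grb10 (ENSMUSG00000020176.19, chr11:11880508-11987401, minus strand), an adaptor that binds the insulin receptor and dampens its signal, was the gene nearest to a change. It was at 322 and 286 TPM in controls and 338 and 396 TPM after BMP6. Both BMP6 libraries lay above both controls, as in 16.6% of all entries. The log2 difference was 0.27 ± 0.11 (95% interval 0.00 to 0.54), or 1.20-fold, with an adjusted p of 1.00 in limma. The difference was 0.07 within number 1 and 0.47 within number 2, so most of it lay in 1 pair of libraries. With the replicate number as a block the adjusted p was 0.246.

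The groups were separate over some exons of Grb10 and overlapped over others. Its main transcript, ENSMUST00000093321.12, has 17 exons and held 99.4% to 99.5% of the gene in every library. Depth per 1000000 reads over exon 1 was 8.06 and 6.69 in controls and 8.02 and 7.71 after BMP6, where the groups overlapped. Over exon 17 it was 18.98 and 17.4 in controls and 20.4 and 23.6 after BMP6, where they did not. The groups were separate in 5 of the 17 exons, namely 10, 11, 12, 14 and 17, but overlapped in exons 13, 15 and 16. In TPM, BMP6 lay above control in every library in 16.6% of all entries, and no such share was taken over exons. Exons of 1 gene are not independent, so the count does not show a difference along the gene. Of the main and the downstream start shown above, reads came almost wholly from the main one. The first exon of the downstream start had 0.188% to 0.363% of the depth of the last exon. The first exon of the main start had 32.6% to 42.5%. A further transcript, ENSMUST00000109653.8, starts at exon 3, which all 3 transcripts hold, so depth could not tell its start apart.

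Mest (ENSMUSG00000051855.17, chr6:30733505-30748464, plus strand) was at 1453 and 1179 TPM in controls and 1327 and 1325 TPM after BMP6. Both BMP6 libraries lay between the controls, and the log2 difference was 0.02 ± 0.11. The pair of transcripts from the main start, ENSMUST00000163949.9 and ENSMUST00000124665.3, begin 3 bases apart. ENSMUST00000163949.9 held 74.0% and 89.3% of the gene in controls and 71.1% and 85.3% after BMP6, so its share followed the replicate number. The first exon of the upstream start had a depth of 0.03 and 1.26 reads a base in controls and was listed at 0 in both BMP6 libraries, whereas the first exon of the main start had 1885 to 2589. Copg2, whose entry ends over Mest on the other strand and shares 912 bases with it, was at 7.29 to 7.79 TPM. Unstranded reads there cannot be assigned to a strand. In the later annotation, GENCODE M39, Copg2 matched the main Mest transcript over a longer stretch, 1941 bases at 95% identity or more.

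Peg3 (ENSMUSG00000002265.19, chr7:6706891-6733420, minus strand), a large zinc finger protein known from stem and progenitor cells of several tissues, was at 72.6 and 74.7 TPM in controls and 71.6 and 90.8 TPM after BMP6. BMP6 2 was the high library and BMP6 1 lay under both controls. The log2 difference was 0.13 ± 0.13. A single transcript of 9 exons, ENSMUST00000051209.11, held 99.9% of its control level. Plagl1 (ENSMUSG00000019817.20, chr10:12966532-13007438, plus strand), a zinc finger factor that restrains the cell cycle, was at 10.7 and 8.73 TPM in controls and 11.8 and 10.3 TPM after BMP6. The groups overlapped, with control 2 lowest and BMP6 1 highest, and the log2 difference was 0.17 ± 0.15. Ndn (ENSMUSG00000033585.7, chr7:61996317-62000010, plus strand), a MAGE family protein of the Prader-Willi region, was at 19.99 and 15.4 TPM in controls and 19.03 and 14.6 TPM after BMP6. Replicate 1 was the high library in both groups, and the log2 difference was -0.07 ± 0.18, with -0.07 within each replicate number. Ndn was measured on 1 transcript with 1 exon of 3694 bases, and its TPM rests on that length. The RefSeq start of Ndn lies 1708 bases inside this transcript, and which start was used was not tested.

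**Figure D3:**
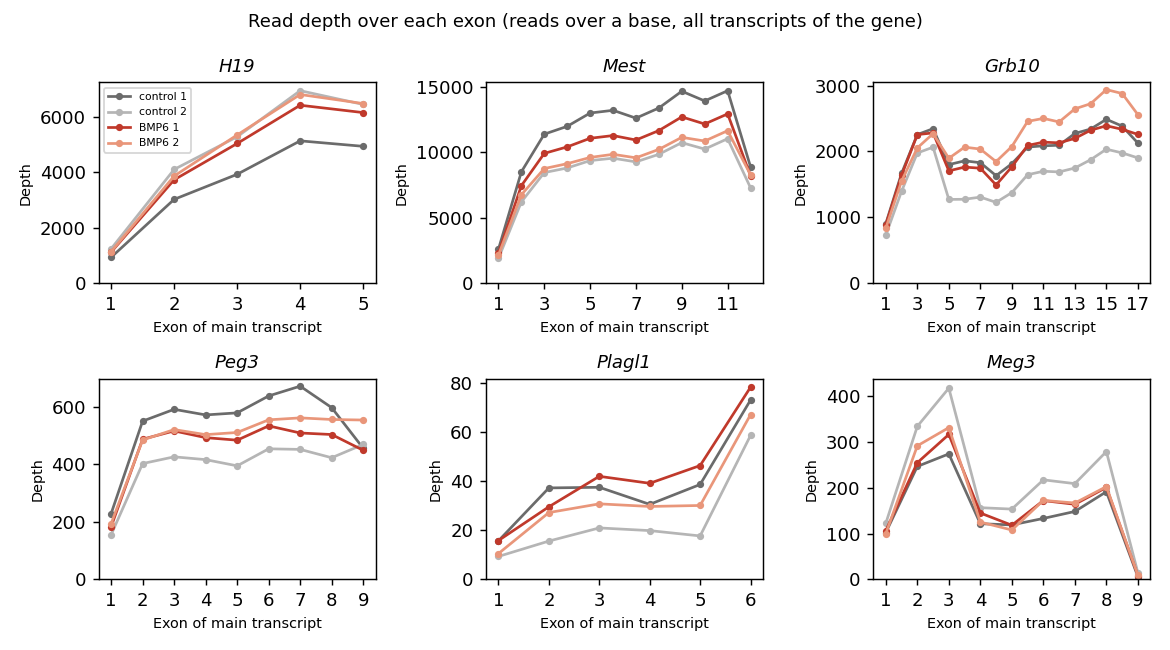
Read depth (mean number of reads over a base, summed over the transcripts of the gene, not scaled for library size) by exon of the main transcript for 6 of the genes in the 4 libraries. In H19 and Mest depth is lowest in exon 1 (929 to 1237 and 1885 to 2589 reads), in Grb10 BMP6 2 is the highest library from exon 5 on, and in Meg3 depth drops to 5.90 to 14.4 reads in exon 9.

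Gnas (ENSMUSG00000027523.22, chr2:174126113-174188537, plus strand) encodes the alpha subunit of the stimulatory G protein and, from other start sites, Nesp and XL-alpha-s. It was at 668 and 628 TPM in controls and 688 and 662 TPM after BMP6. The groups overlapped and the log2 difference was 0.06 ± 0.08. On reads rebuilt from coverage they did not overlap, with 111249 and 138358 reads in controls and 142824 and 140633 after BMP6, and limma voom on these reads gave 0.21, or 0.20 with the block (adjusted p = 0.284). Depth per 1000000 reads was higher in both BMP6 libraries than in both controls in 9 of the 13 exons of the main transcript. These exons belong to 1 gene and are not independent. In TPM, BMP6 lay above control in every library in 16.6% of all entries, and no such share was taken over exons. When the depth of the overlapping entry Gm20721 was added, the groups overlapped, as given below. The gene level in TPM was made up of transcripts that differed widely between libraries. ENSMUST00000109096.9, which starts at the Nesp exon, was at 554 TPM in control 1, 1.61 TPM in control 2 and listed at 0 in both BMP6 libraries. ENSMUST00000087871.11, which starts at exon 1A, was at 77.9 TPM in control 1 and at 528, 475 and 547 TPM in control 2, BMP6 1 and BMP6 2. ENSMUST00000156623.8, which also starts near exon 1A, was at 28.7 and 78.3 TPM in controls and 166 and 96.9 TPM after BMP6. None of the 6 Gnas transcripts tested passed the test.

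The depth over the first exons did not follow these transcript levels. The Nesp first exon had 124 and 76.7 reads a base in controls and 121 and 78.5 after BMP6, or 0.894% to 1.90% of the last exon of the gene. The XL first exon had 35.9 to 44.2 reads a base and exon 1A, where ENSMUST00000087871.11 starts, had 130.2 to 172. The 4 transcripts that start at the first exon of the alpha subunit itself were listed at 0 in every library. Exons 3 to 13 of ENSMUST00000087871.11, which lie downstream of these first exons, had 4959 to 12445 reads a base. The share of each Gnas product could therefore not be read from the transcript levels.

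An entry on the other strand, Gm20721 (chr2:174172112-174188505, minus strand), took part of the reads at this place. Of its 12 exons, which hold 1488 bases, 98.7% of the bases lie on Gnas exons, and 7 starts and 7 ends are the same bases as in Gnas. Of its 11 introns, 7 begin with GT and end with AG when read on the Gnas strand and 0 do so on its own strand, whereas all 12 introns of ENSMUST00000087871.11 do. It had no record under this name in GENCODE M39, the later annotation used here. Gm20721 was at 414 and 36.0 TPM in controls and 23.3 and 2.13 TPM after BMP6. The BMP6 library was lower within each number, and control 1 was by far the highest. Its log2 difference was -3.83 ± 1.33 (adjusted p = 1.00 in limma), and with the replicate number as a block the adjusted p was 1.59e-06.

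Depth was also taken over both entries together. Gm20721 took a median of 25.8% and 2.39% of the depth on the 12 shared exons in controls and 1.502% and 0.08% after BMP6. On the first of them, which lies in the first exon of the alpha subunit, it took 94.1% and 24.2% in controls and 18.5% and 1.03% after BMP6. The summed depth of that exon was itself unequal, at 3315 and 405 reads a base in controls and 403 and 312 after BMP6. The median depth of Gnas alone over the 12 exons, per 1000000 reads, was 67.4 and 84.6 in controls and 86.6 and 86.1 after BMP6. With Gm20721 added it was 90.6 and 86.6 in controls and 88.0 and 86.2 after BMP6, where the groups overlapped. On the TPM scale, which divides by transcript length, the sum of both entries was 1082 and 664 in controls and 711 and 664 after BMP6. Its log2 difference was -0.30 ± 0.22 (adjusted p = 1.00 in limma, and 0.329 with the block), against 0.06 for Gnas alone. Unstranded libraries cannot tell reads of both entries apart. The direction of the small Gnas difference turned in the TPM sum, while the summed depth overlapped between groups. Each TPM rests on its own transcript length, with 1488 bases in Gm20721 and 3903 in ENSMUST00000087871.11. The length behind the Gnas TPM also differed between libraries. In control 1, 82.9% of it was given to ENSMUST00000109096.9, which has 2465 bases, and 11.7% to ENSMUST00000087871.11. In control 2 these shares were 0.256% and 84.0%.

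**Figure D4:**
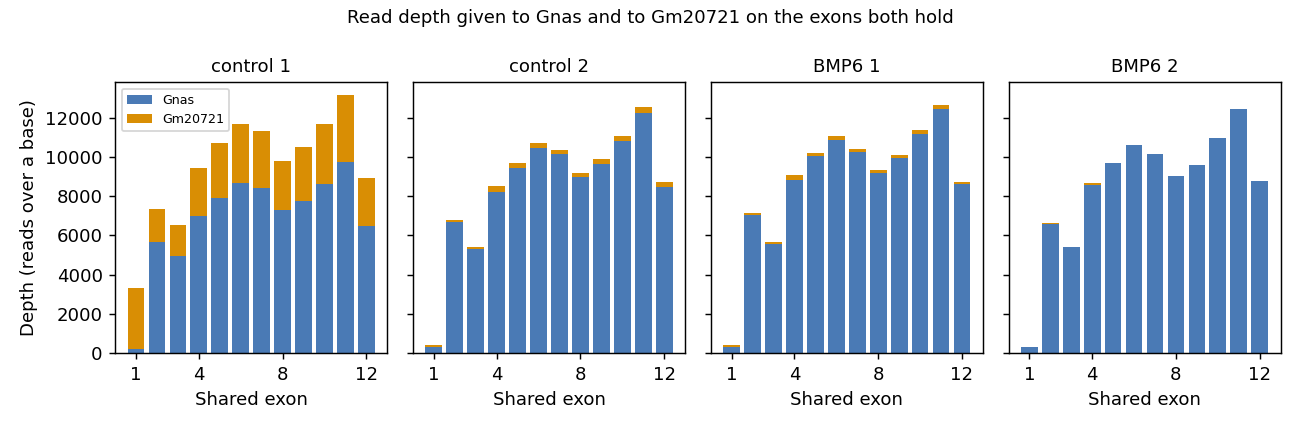
Read depth (reads over a base, not scaled for library size) on the 12 exons of Gm20721, numbered by position along the chromosome, split into the depth given to Gnas (blue) and to Gm20721 (orange), for each library. Gm20721 holds a median of 25.8% in control 1 and 0.08% to 2.39% in the other libraries, while the full bars differ by at most 1.21 times between libraries except in exon 1, where control 1 reaches 3315 reads and the others 312 to 405.

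The genes parted by replicate number in TPM more often than by treatment. The groups did not overlap in 1 of the 9 tested genes, as in 28.3% of all entries. In 8 of the 9 tested genes both libraries of 1 number lay above both of the other, as in 55.2% of all entries. H19, Meg3, Rian and Peg3 were higher in number 2, and Gnas, Mest, Ndn and Plagl1 in number 1. Grb10 was the exception. Mest parted narrowly, with 1327 TPM in BMP6 1 and 1325 TPM in BMP6 2. For Gnas the order held in TPM but not in depth. Its median depth over the 12 exons shared with Gm20721, scaled for library size, overlapped between numbers. It was 67.4 in control 1 and 86.6 in BMP6 1, against 84.6 in control 2 and 86.1 in BMP6 2. The BMP6 difference had the same sign within both numbers in 5 of the 9 genes, against 60.6% of all entries. Of the non-coding RNAs, the difference between numbers (2 minus 1, log2 scale) was 0.44 in controls and 0.07 after BMP6 for H19, 0.54 and 0.09 for Meg3 and 0.56 and 0.40 for Rian. Mirg, a further non-coding RNA of the Dlk1-Dio3 locus that was under the filter, differed by 0.35 in controls and -0.77 after BMP6. Among the 38 tested entries of a wider imprinted list, described below, 11 were higher in number 2 and 13 in number 1. Igf2, the paternal growth factor gene next to H19, was higher in number 1, at 195 and 118 TPM in controls and 179 and 130 TPM after BMP6. The ratio of H19 to Igf2 was 2.11 in control 1 and 2.96 in BMP6 1, and it was 4.73 in control 2 and 4.30 in BMP6 2. The summed fibroblast markers were 135 and 103 TPM in controls 1 and 2 and 130 and 89.1 TPM in BMP6 1 and 2, and their part in these differences was not tested.

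**Figure D5:**
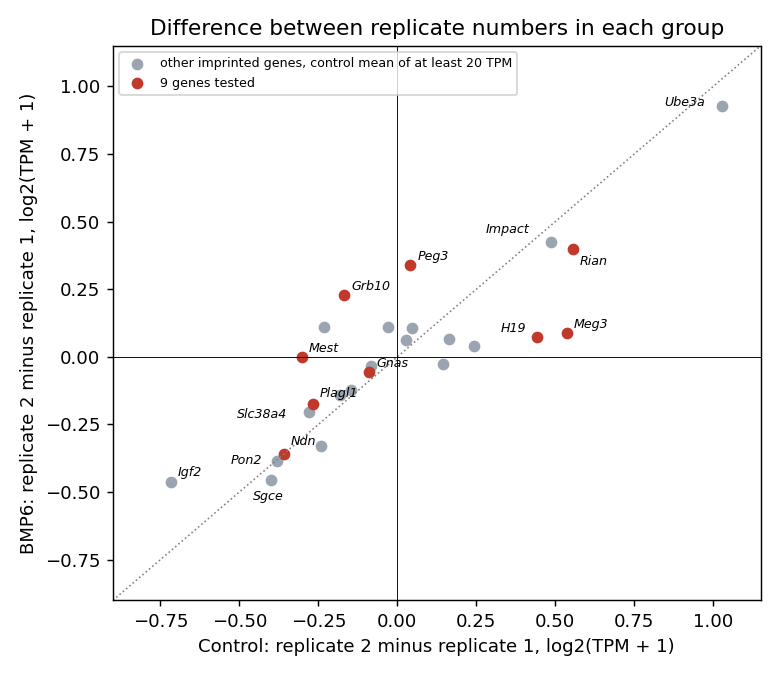
Difference between replicates 2 and 1 on the log2(TPM + 1) scale in controls (horizontal) and after BMP6 (vertical) for the 9 genes tested (red) and for other imprinted genes with a control mean of at least 20 TPM (grey). Genes near the dotted line of equal values, such as Ube3a and Ndn, differ alike between numbers in both groups, while H19 and Meg3 lie under it, with 0.44 and 0.54 in controls and 0.07 and 0.09 after BMP6.

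Other genes were read from a wider list of imprinted genes, chosen by region. Alleles were not told apart, so whether each of them is imprinted in these cells was not tested. Of 65 further names, 60 were the name of an entry, in 61 entries, of which 38 passed the filter. The other 23 did not, and 9 of those were listed at 0 in every library. None of the 38 passed the test (0 called higher and 0 lower, against 0.206% of all entries), 21 differences were above 0 and 17 under 0, and they ran from -0.23 for Airn to 0.32 for Peg12, with a median of 0.01. At an unadjusted p under 0.05 the count was 1, Peg12, a gene of the Prader-Willi region, at 26.3 and 22.3 TPM in controls and 29.4 and 31.8 TPM after BMP6. With the block, 0 of 38 reached an adjusted p under 0.1, against 1.64% of all entries.

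Of these entries, 17 had a control mean of at least 20 TPM, and 5 of them belong to the region of H19, Igf2 and Kcnq1ot1. Cd81, a tetraspanin, was highest at 957 and 863 TPM in controls and 964 and 885 TPM after BMP6. Cdkn1c, the maternal inhibitor of cyclin-dependent kinases p57, was at 506 and 523 TPM in controls and 495 and 533 TPM after BMP6, with a log2 difference of 0.00. Nap1l4 was at 237 to 257 TPM and Tssc4 at 70.9 to 78.5 TPM, whereas Kcnq1ot1, the non-coding RNA of the region, was at 0.772 to 1.75 TPM and Phlda2 and Ascl2 stayed under 1 TPM. Next to Grb10, Ddc was at 55.3 to 65.5 TPM and Cobl at 38.0 to 40.8 TPM. In the Peg10 region Sgce, Pon2 and Pon3 were at 30.9 to 64.1 TPM, but Peg10 itself was at 0.194 to 0.469 TPM. The others were H13 at 63.6 to 72.1 TPM, Slc38a4 at 30.9 to 40.0 TPM, Impact at 22.5 to 32.9 TPM, Blcap at 26.5 to 30.3 TPM and Mcts2 at 22.4 to 25.2 TPM. Ube3a, the ubiquitin ligase of Angelman syndrome, was at 13.7 and 28.9 TPM in controls and 15.3 and 29.96 TPM after BMP6, so it followed the replicate number. Of the Dlk1-Dio3 region, 0 of the 4 further entries passed the filter.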

How the data were processed

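Per the study's methods, unstranded full-length cDNA libraries of polyadenylated RNA, without molecular identifiers, were sequenced as read pairs. The authors aligned them with STAR 2.7.11a to GRCm39 (GENCODE M32) and used SAMtools 1.17 and StringTie 2.2.1 with a merged annotation (versions from the submitters' processing notes). The authors deposited TPM and, in a second table, FPKM per gene, and per library the transcript levels with a coverage signal (mean depth per transcript and exon). StringTie divides reads among overlapping transcripts, so transcript levels are estimates. Groups and replicate numbers came from the labels. Reads were rebuilt as coverage times length over 100 bases, not counted. Depth is thus not that of independent molecules.

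The 10 genes and the gene lists were chosen with earlier results of these data known. The test was limma 3.58.1 (R 4.3.3, trend, two-sided) on log2(TPM + 1) over 13128 entries, and over 19346 transcripts, with a mean of at least 1 TPM and Benjamini-Hochberg adjustment, without a block. This scale understates changes of low genes. The step was tested on simulated data. Same-numbered libraries share a batch in the labels, and their deviations from group means had a correlation of 0.563 across entries. The alternatives were the replicate block, other pseudocounts, filters and scalings, no trend, the FPKM table, voom on rebuilt reads and leaving out each library. Adding Gm20721 to Gnas was chosen after seeing the data. Named were all 10 genes, their transcripts with at least 10% of the control level, and further imprinted genes of at least 20 control TPM. Other genes named, such as low neighbours and Gm20721, were chosen after their values were seen. Gene types and copies (blastn 2.17.0+, 95% identity over 100 bases) came from GENCODE M39, where 62 of 63 transcripts were found, and sequences from RefSeq, which held promoters of 9 of the 10 genes.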

Additional observations from a re-analysis of the deposited data

How the results depend on the processing

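No imprinted gene, transcript of them or gene of the wider list was called under any alternative run, and the lowest adjusted p of the 9 genes over all of them was 0.220, for Grb10. Grb10 and Plagl1 kept their direction in all 14 alternatives. Leaving out 1 library at a time gave log2 differences of 0.15 to 0.38 for Grb10, 0.04 to 0.31 for Plagl1, 0.01 to 0.10 for Gnas, -0.04 to 0.41 for H19, -0.34 to 0.20 for Meg3, -0.13 to 0.17 for Mest, -0.25 to 0.11 for Ndn, -0.04 to 0.30 for Peg3 and -0.48 to 0.08 for Rian. The direction turned without control 1 (H19, -0.037, and Ndn, 0.11), without control 2 (Meg3, 0.20, Rian, 0.080, and Mest, -0.13), without BMP6 1 (Rian, 0.0018) and without BMP6 2 (Peg3, -0.041, and Ndn, 0.11). The Gnas difference was 0.21 with voom on rebuilt reads and 0.20 with the block added, against 0.06. The direction also turned for Mest in the FPKM table (-0.0072) and for Gnas with Gm20721 added (-0.30, the same with the block).

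The entries called over the whole table numbered 27. They numbered 43 with the replicate block, 16 with a pseudocount of 5, 2 with no filter on low values, 16 with a filter at 5 TPM, 14 without a trend, 77 with voom and the block, and 23 to 39 when 1 library was left out. The block changed no call of an imprinted gene. Beyond the filters and libraries themselves, the cause of these differences was not tested. With 2 libraries a group, differences under 2-fold were poorly resolved, and Rian and Dlk1 were limited by depth.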
